A study of Mus musculus with 15 samples.

Results

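Mammary tumors of ErbB2KI mice that carried 1 floxed Ctnnb1 allele (genotype Ctnnb1 fl/wt, called HET) were compared with tumors of the same model with wild-type Ctnnb1 (Ctnnb1 wt/wt, called WT). The tumors were chosen by their genotype label alone, and the 5 HET and 5 WT tumors made up 10 of the 15 tumors of the series. The other 5 tumors, Ctnnb1 fl/fl (HOM), entered the shared estimate of spread. They also entered the choice of the genes tested and of the array signal kept for each, and are not compared here. All groups share the ErbB2KI background, and per the series' design text beta-catenin was removed in the mammary epithelium only and tumors were flash frozen at end burden. The labels name no Cre line and no age, and do not say whether tumors of a genotype came from separate animals. The p-values therefore reflect tumor-to-tumor spread, which may be partly technical. Each tumor was hybridised to 1 Affymetrix whole-transcript array, and values are log2 expression. Numbers such as HET 3 only name a tumor and pair nothing across genotypes.

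Beta-catenin links classical cadherins to the actin cytoskeleton through alpha-catenin. In the absence of a Wnt ligand a cytoplasmic complex of Axin, APC and kinases marks it for destruction. When Wnt binds Frizzled and LRP receptors, beta-catenin enters the nucleus and acts with TCF/LEF factors. Erbb2, a receptor tyrosine kinase that pairs with Erbb3 and Egfr, drives the tumors of this model. In the mammary gland, Wnt signals act mainly on basal and progenitor cells.

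All 10 tumors had clear levels of the epithelial keratin Krt8. It lay between 11.77 and 12.60 in WT and between 11.64 and 12.54 in HET, against array medians of 5.54 to 5.62 in these tumors. The mean of 31 tested keratins was lowest in HET 1, at 6.25 against 6.90 to 7.84 in WT. The adhesion protein Epcam lay between 11.67 and 12.16 in WT and between 9.31 and 12.31 in HET, with HET 1 the lowest. A few tumors stood apart. WT 5 had a Ctnnb1 level just below the HET range, and WT 1 was least like the other WT tumors over all tested genes. HET 1 was low in epithelial genes, and HET 3 was high in skeletal muscle genes. Their values are given below. The search for genes without overlap was therefore repeated without each tumor.

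Ctnnb1, the floxed gene, read 11.71, 12.09, 12.10, 12.08 and 11.21 in WT 1 to WT 5 and 11.65, 11.39, 11.22, 11.63 and 11.60 in HET 1 to HET 5. WT 1 to WT 4 all lay above the HET tumors, while WT 5 lay below every HET tumor. The HET mean was 11.50 ± 0.19 and the WT mean 11.84 ± 0.39 (SD, n = 5 each), a log2 difference of -0.34 (95% interval -0.75 to 0.08), which is 79.1% of the WT level. The difference was not larger than the spread between tumors (two-sided exact permutation p = 0.0952 over 252 assignments, smallest possible 0.00794). Without WT 5 it was -0.49 (exact permutation p = 0.00794), and that tumor was singled out by Ctnnb1 itself. Where the probes lie relative to the floxed exons was not analysed, and stroma, in which the gene was not targeted, is part of each tumor.

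Of 14243 genes tested with limma, 2 were lower in HET past an adjusted p of 0.05, which is 0.014% of the genes, and 0 were higher. A looser description counts genes for which all 5 HET tumors lie on one side of all 5 WT tumors. These are called separating genes here, and the gap is the log2 distance between the nearest HET and the nearest WT tumor. There were 225 separating genes, 1.58% of those tested: 76 (0.534%) with HET above WT and 149 (1.05%) with HET below WT. Most gaps were narrow. The median gap was 0.06 for genes higher in HET and 0.07 for genes lower in HET, and a gap over 0.5 was seen for 5 and 2 genes. Adjusted p-values of separating genes ran from 0.00594 to 0.674. Over all genes 45.5% had a higher mean in HET, with a median log2 difference of -0.03, and family counts below are to be read against these shares. Medians of lists are given with the left-out tumors that moved them over 1.5 times or, for small medians that many tumors moved so, with the lowest and highest value on leaving out 1 tumor.

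**Figure D1:**
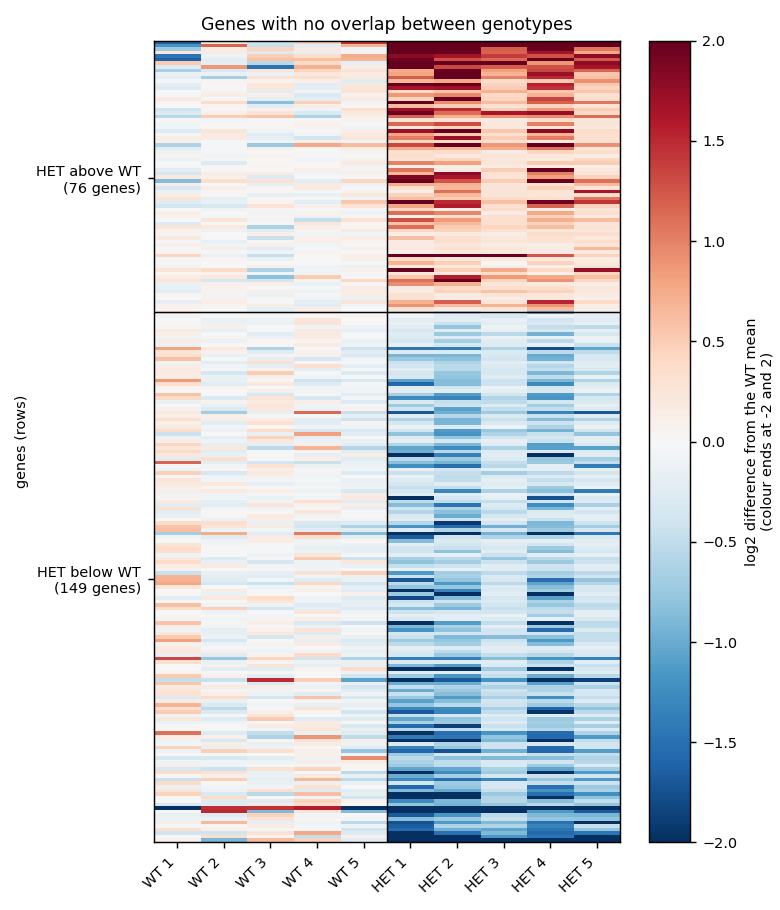
Heatmap of the 225 separating genes (rows) in the 5 WT and 5 HET tumors (columns), coloured by the log2 difference from the WT mean, with colours ending at -2 and 2. The 76 genes with HET above WT are sorted from the widest gap at the top, the 149 genes with HET below WT from the widest gap at the bottom; HET 3 and HET 5 are paler than the other HET tumors in many rows.

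The tumors did not contribute equally to these gaps. Among the 76 genes with HET above WT, the HET tumor nearest to WT was HET 3 for 26 genes and HET 5 for 25, against 11 for HET 4, 10 for HET 1 and 4 for HET 2. Among the 149 genes with HET below WT it was HET 3 for 70 and HET 5 for 48, against 18, 9 and 4 for HET 1, HET 4 and HET 2. On the WT side WT 5 was nearest to HET most often, for 25 and 53 genes. Over all tested genes, HET 3 and HET 5 also resembled the WT tumors most, with median Pearson correlations of 0.921 and 0.915 with the 5 WT tumors, while HET 1, HET 2 and HET 4 had 0.865 to 0.876. With the other HET tumors the medians were 0.880 for HET 3, 0.848 for HET 5 and 0.848 for HET 1, lower than with WT. For HET 2 and HET 4 they were 0.888 and 0.879, higher than with WT. WT 1 had a median of 0.882 with the other WT tumors, against 0.937 to 0.941 for WT 2 to WT 5.

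Leaving out a tumor can only add separating genes, and the numbers added were unequal. Without HET 3 there were 226 higher and 319 lower, without HET 5 there were 214 and 476, and without WT 5 there were 186 and 324. The counts were 140 and 235 without WT 1, 129 and 249 without WT 2, 117 and 262 without WT 4, and 149 and 216 without HET 1. Without HET 2, HET 4 or WT 3 both counts lay within 1.5 times the full ones. The limma test called 48 genes without HET 3 and 18 without HET 5, and 1 or 2 without any of the other tumors.

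**Figure D2:**
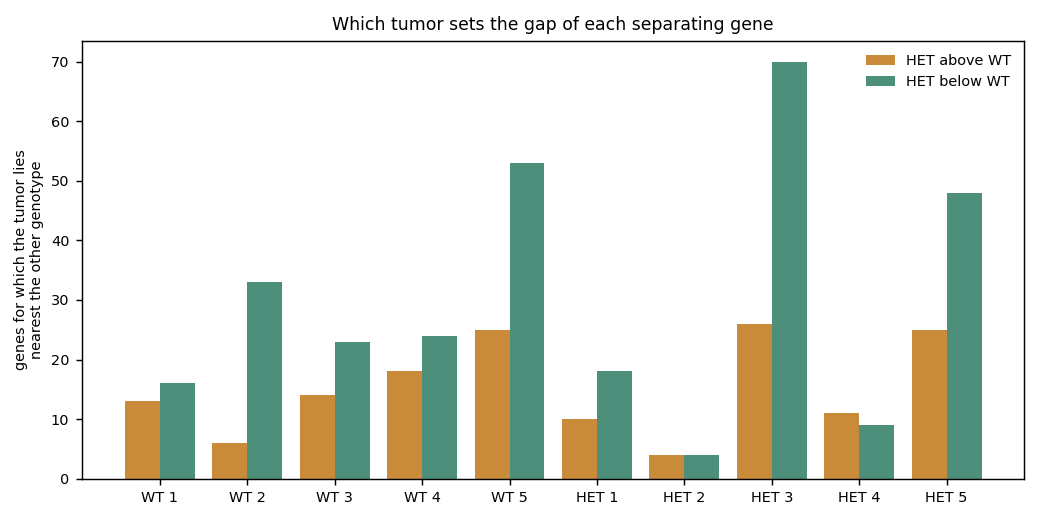
Number of separating genes (vertical axis) for which each tumor (horizontal axis) lies nearest to the other genotype, for genes with HET above WT and HET below WT. HET 3 and HET 5 set the gap from the HET side for 96 and 73 of the 225 genes, and WT 5 from the WT side for 78.

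Cdh19, a cadherin known from Schwann and neural crest cells, fell 11.5-fold and had the widest gap of all genes, 1.91. It read 7.77, 6.78, 8.32, 8.15 and 7.48 in WT 1 to WT 5 and 4.07, 4.87, 4.41, 3.81 and 3.74 in HET 1 to HET 5. The HET values lay near or under the lower quartiles of their arrays (4.15 to 4.22) except in HET 2 and HET 3, so the fold is not well determined. The log2 difference was -3.52 (standard error 0.40, 95% interval -4.38 to -2.66, limma adjusted p = 0.00594). A530020G20Rik, an uncharacterised gene model and the other called gene, fell 2.23-fold, from 6.70 ± 0.26 to 5.54 ± 0.32 (adjusted p = 0.0307). It lay between 6.32 and 7.03 in WT and between 5.16 and 5.91 in HET.

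The pattern of Cdh19 was set beside that of every other gene over the 10 tumors. The 5 genes most like it by absolute Pearson correlation were Pacs1 (0.959), 6030443J06Rik (0.918), Gm10139 (-0.915), Arhgef11 (0.910) and Fbxo27 (-0.907). All 10 points share 1 array each and differ by genotype, so any gene that separates the genotypes tends to score high. Pacs1, a sorting protein of the trans-Golgi network, read 9.45, 9.42, 9.81, 9.62 and 9.51 in WT 1 to WT 5 and 8.71, 8.84, 9.12, 8.78 and 8.77 in HET 1 to HET 5. Both groups were tight, and only HET 3 came within 0.31 of the nearest WT tumor. Its difference of -0.72 (standard error 0.19) did not pass over all genes (adjusted p = 0.212).

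Other named genes with wide gaps below WT had varied roles. Boc, a cell-surface co-receptor for Hedgehog ligands, read 10.47, 10.83, 10.53, 9.99 and 10.57 in WT and 8.32, 8.15, 9.31, 9.01 and 7.89 in HET, in tumor order. All HET tumors lay at least 0.67 under the lowest WT tumor, and HET 5 was the lowest (difference -1.94, adjusted p = 0.137). Boc was alone in this respect among the 19 tested genes of the Hedgehog pathway, whose means were higher in HET for 11 and lower for 8 (median 0.04, from -0.05 without WT 1 to 0.13 without WT 4). Sorcs1, a sorting receptor of the sortilin family, lay between 5.71 and 8.09 in WT and between 4.54 and 5.43 in HET. Nrbp2, a pseudokinase, lay between 9.51 and 10.68 in WT and between 7.75 and 9.02 in HET, a difference of -1.51 (adjusted p = 0.136). Rnf128, an E3 ubiquitin ligase, lay between 8.17 and 9.36 against 6.23 and 7.83, with HET 5 lowest. Neither Nrbp2 nor Rnf128 passed over all genes with all 10 tumors, but both did without HET 3 (adjusted p = 0.0224 and 0.0398). HET 3 was the HET tumor nearest to WT for both genes, so leaving it out favours a lower p. In that fit 48 genes passed, and it adds no separate evidence for these 2.

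Carmil1, which binds actin capping protein, was nearly constant in WT (9.92 to 10.19) and ranged from 8.38 to 9.57 in HET. Arhgef26, a guanine nucleotide exchange factor, lay between 6.54 and 7.25 in WT and between 5.11 and 6.25 in HET. In both genes HET 1 was the lowest tumor (adjusted p = 0.223 and 0.17).

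Of the remaining wide-gap genes below WT, Nsmf, Fam234a and Zbtb10 differed by -0.76, -0.82 and -1.84 (adjusted p = 0.137, 0.206 and 0.207). Zbtb10, a zinc finger factor, was uneven within HET, at 7.04, 6.30, 8.92, 7.38 and 8.70 in HET 1 to HET 5, and lay between 9.13 and 9.90 in WT. HET 3 and HET 5 were thus the tumors nearest to WT for this gene. Zfp genes, the largest family examined, had 225 lower and 79 higher means among 304, but the median was only -0.14 and 4 members separated.

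**Figure D3:**
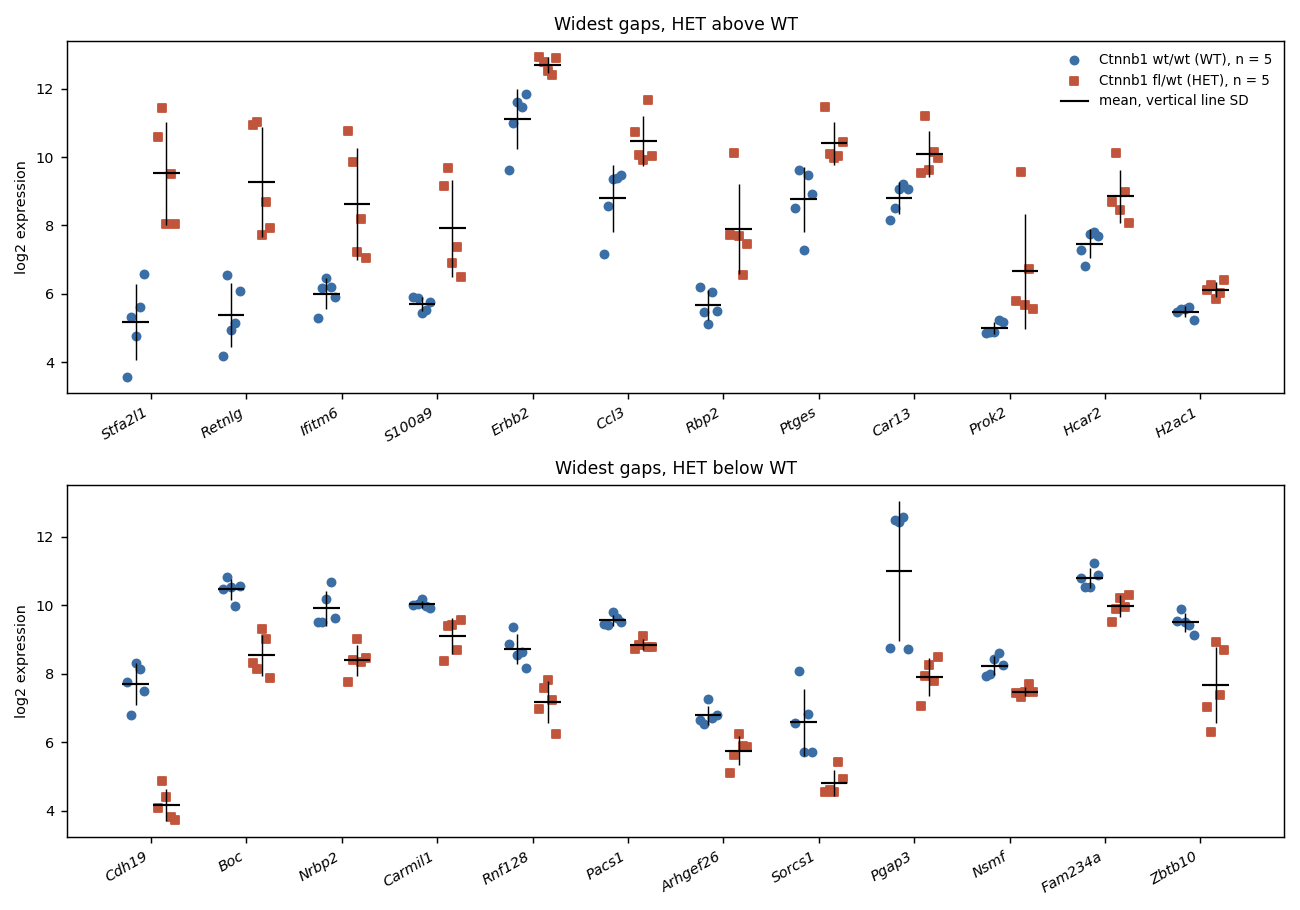
Log2 expression (vertical axis) of the 12 named genes with the widest gap above WT (upper panel) and the 12 with the widest gap below WT (lower panel), each point a tumor, with the mean and SD of 5 tumors per genotype. In every gene shown the 5 HET points and the 5 WT points do not overlap; Stfa2l1 and Cdh19 have the widest gaps, 1.45 and 1.91.

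The widest gaps above WT belonged to genes of neutrophils, the short-lived granulocytes that enter tissue from blood. Of 28 tested members of a neutrophil gene list, 27 had a higher mean in HET, with a median log2 difference of 2.0 (4.0-fold), and 6 separated, which is 21.4% of the list against 1.58% of all genes. The list was written with earlier results of these data known, so this share only describes it. None of its members passed limma over all genes. Lcn2, which mammary epithelium also makes, was the exception with a lower mean, at -0.62. Of 34 listed members 28 were tested, and testing required values above the array median on at least 5 arrays. A gene low in WT can thus enter through the tumors in which it is high, so part of these counts may be set by the filter. Wfdc21, at 4.89 to 5.37 in WT, lay under the median of every WT array (5.54 to 5.58). Stfa2l1, a stefin that inhibits cysteine proteases, read 3.58, 5.32, 4.78, 5.62 and 6.59 in WT 1 to WT 5 and 10.59, 11.43, 8.03, 9.50 and 8.05 in HET 1 to HET 5. HET 1 and HET 2 were highest, and the lowest HET tumor still lay 1.45 above WT 5 (20.3-fold between means, 95% interval of the log2 difference 2.40 to 6.29, adjusted p = 0.206). WT 1 lay under the lower quartile of its array (4.17), and WT 2, WT 3 lay under their array medians (5.58 and 5.54), so the fold is not well determined.

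Retnlg, a resistin-like secreted protein of bone marrow and neutrophils, read 4.19, 6.55, 4.93, 5.16 and 6.07 in WT and 10.92, 11.03, 7.73, 8.69 and 7.92 in HET (difference 3.88, adjusted p = 0.17). Its WT 1 value also lay near the lower quartile of that array (4.17), so the size of its difference is likewise not well determined. Ifitm6 lay between 5.28 and 6.45 in WT, and at 10.76, 9.86, 7.21, 8.18 and 7.06 in HET. S100a9, a subunit of calprotectin, lay between 5.44 and 5.91 in WT and at 9.16, 9.69, 6.89, 7.37 and 6.48 in HET. The same order of tumors recurred in these genes, with HET 1 and HET 2 highest, HET 4 next and HET 3 and HET 5 closest to WT. Wfdc21 (difference 1.0) separated by 0.06 and Stfa1, named after its values were seen, by 0.03. Stfa1 and Stfa2l1 are related genes next to each other among the tested genes, so shared probe signal between them was not resolved.

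Promoter sequence is shown for the 4 neutrophil genes with the widest gaps, as these members were highest in the same HET tumors. Each run is the 250 bases before the RefSeq transcription start (GRCm38.p6), 5′ to 3′ on the gene's strand. Capitals mark matches on either strand to TTGCNNAA (C/EBP), GAGGAA (the PU.1 core) or CTTTGA (the TCF/LEF core).
Stfa2l1 (chr16:36156561-36156810, plus strand): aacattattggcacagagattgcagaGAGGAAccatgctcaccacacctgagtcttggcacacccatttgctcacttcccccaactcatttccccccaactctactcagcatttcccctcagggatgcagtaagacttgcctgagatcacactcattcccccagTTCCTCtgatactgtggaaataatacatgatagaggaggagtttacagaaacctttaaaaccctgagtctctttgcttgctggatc
Retnlg (chr16:48872358-48872607, plus strand): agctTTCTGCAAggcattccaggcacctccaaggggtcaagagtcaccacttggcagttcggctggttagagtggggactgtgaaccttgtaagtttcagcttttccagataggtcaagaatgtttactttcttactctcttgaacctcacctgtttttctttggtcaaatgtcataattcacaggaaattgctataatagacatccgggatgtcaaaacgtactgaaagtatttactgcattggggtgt
Ifitm6 (chr7:141016893-141017142, minus strand): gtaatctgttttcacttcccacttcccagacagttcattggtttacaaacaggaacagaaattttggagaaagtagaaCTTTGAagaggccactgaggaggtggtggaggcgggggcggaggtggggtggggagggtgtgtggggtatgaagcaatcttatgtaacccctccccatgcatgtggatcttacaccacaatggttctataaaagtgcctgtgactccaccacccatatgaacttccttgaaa
S100a9 (chr3:90695722-90695971, minus strand): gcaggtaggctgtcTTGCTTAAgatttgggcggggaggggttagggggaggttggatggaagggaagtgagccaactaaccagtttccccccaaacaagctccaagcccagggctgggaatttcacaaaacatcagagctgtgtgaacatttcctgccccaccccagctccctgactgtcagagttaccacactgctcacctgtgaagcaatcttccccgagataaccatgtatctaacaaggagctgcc

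Retnlg and S100a9 each held 1 match to the C/EBP motif, Stfa2l1 held 2 to the PU.1 core and Ifitm6 held 1 to the TCF/LEF core. C/EBP factors and PU.1 are regulators of granulocyte genes, and their motifs were added after the values were seen. Promoters were found for 25 of the 28 neutrophil genes and 11130 of the 14243 tested genes. TTGCNNAA was in 10 of the 25 (40%) and in 7.55% of all promoters, GAGGAA in 15 (60%) and 22.7%, and CTTTGA in 7 (28%) and 10.8%. GAGGAA shares the bases GGAA with the ETS motif CCGGAA, which was in 2 of the 25. A match is only a description of these letters in this window.

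Over all separating genes, TTGCNNAA was in 16.4% of 61 promoters of genes higher in HET (10 of 61) and 4.96% of 121 promoters of genes lower in HET, against 7.55% of all. The former include the neutrophil genes shown above. GAGGAA was in 22.95% and 21.5%, against 22.7%. CTTTGA was in 9.84% and 9.09%, against 10.8%. The SOX core CTTTGT was in 9.84% and 12.4%, against 12.3%, and CCGGAA in 16.4% and 21.5%, against 20.3%. The AP-1 motif TGANTCA was in 9.84% and 4.96%, against 4.83%, and the E-box CACGTG in 8.20% and 6.61%, against 8.19%.

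Signals that attract or mobilise neutrophils were higher in HET by their means in 17 of 17 tested members (median 1.0, and 0.51 without WT 1). Of 22 listed members 17 were tested, through the same filter. The list as written shares Ptgs2 with the neutrophil list and includes the receptor C5ar1, so its count is not separate from that of the neutrophil list. Which cells made these transcripts was not tested. Ccl3, a chemokine, separated and read 7.18, 8.56, 9.37, 9.39 and 9.47 in WT and 10.74, 10.07, 9.92, 11.65 and 10.02 in HET. WT 1 was far below the other WT tumors, and HET 4 was highest (difference 1.69, adjusted p = 0.290). Prok2, a secreted protein that mobilises myeloid cells, was steady in WT (4.86 to 5.23) and lay between 5.55 and 9.56 in HET, with HET 2 alone above 7. Ptges, the inducible prostaglandin E synthase, lay between 7.29 and 9.63 in WT and between 9.97 and 11.46 in HET (difference 1.64, adjusted p = 0.214). Hcar2, a niacin and ketone body receptor, lay between 6.81 and 7.80 against 8.06 and 10.11. The wider chemokine family was less even, with 21 of 31 higher means and a median of 0.21 that was -0.02 without HET 1, 0.06 without WT 1 and 0.13 without HET 4, and 0.35 and 0.37 without WT 3 and HET 5.

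Other leukocyte lists differed less, and in bulk tissue fewer cells of a type and less RNA per cell cannot be told apart. The pan-leukocyte list had 11 of 12 higher means (tumor means 8.04 to 9.25 in WT and 8.26 to 10.04 in HET), and macrophage and monocyte genes 18 of 23 (7.32 to 8.78 and 8.01 to 9.52). Neutrophil list means were 6.53, 7.22, 7.12, 7.14 and 7.76 in WT 1 to WT 5 and 10.10, 10.12, 8.23, 9.04 and 7.59 in HET 1 to HET 5, so HET 5 lay below WT 5. T and NK cell genes overlapped (6.15 to 7.52 and 5.93 to 7.93), as did dendritic cell genes (6.73 to 7.89 and 6.82 to 7.70). Mast cell, eosinophil and basophil genes had 7 of 7 higher means (5.03 to 6.51 and 4.61 to 7.75). Pan-leukocyte means were also highest in HET 1, HET 4 and HET 2, at 10.04, 9.63 and 9.43. Erythroid and megakaryocyte genes had 6 of 7 higher means and were highest in the same tumors, at 8.41, 7.94 and 7.55. They were 6.89 in HET 3, 6.38 in HET 5 and 6.18 to 7.08 in WT, and the part of blood content was not tested. In a limma fit with leukocyte and fibroblast list means as covariates, only 1 gene passed over all genes, A530020G20Rik. The part of total leukocyte content in the neutrophil values was not tested beyond that fit.

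Of the other wide-gap genes above WT, Rbp2, a cellular retinol-binding protein, read 6.20, 5.48, 5.13, 6.05 and 5.49 in WT and 7.72, 10.10, 7.70, 6.56 and 7.46 in HET. HET 2 stood above the others, and HET 4 came nearest to WT (difference 2.24, adjusted p = 0.223). Car13, a carbonic anhydrase, was 8.80 ± 0.46 in WT and 10.09 ± 0.66 in HET. H2ac1, a replication-dependent histone H2A, had a small but even difference, 5.23 to 5.61 against 5.85 to 6.39 (0.64, standard error 0.13, adjusted p = 0.17).

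Erbb2, the driving oncogene, read 9.63, 11.001, 11.60, 11.47 and 11.85 in WT and 12.92, 12.78, 12.52, 12.39 and 12.89 in HET. The HET tumors were close together and all above WT 5, the highest WT tumor, by at least 0.54 (adjusted p = 0.224). Of 11 tested ErbB receptors and ligands, 9 had a higher mean in HET (median 0.41, with 0.27 without HET 2 and 0.72 without HET 1), and 2 separated, Erbb2 and the ligand Nrg4, a share of 18.2%. Nrg4 differed by only 0.29, at 5.69 to 5.89 against 5.93 to 6.27. The lower means were those of Nrg2 and Erbb3, the kinase-poor partner of Erbb2, at -0.24 and -1.21. List means per tumor overlapped because HET 1 and HET 5 (8.29 and 8.53) lay under WT 5 (8.58).

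Pgap3, which remodels GPI anchors and lies beside Erbb2, differed the other way. It read 8.77, 12.48, 12.45, 12.57 and 8.74 in WT and 7.07, 7.94, 8.26, 7.78 and 8.49 in HET. WT 2, WT 3 and WT 4 formed a high set near 12.5, while WT 1 and WT 5 lay just above the HET tumors, so the mean difference of -3.09 (adjusted p = 0.231) rests on the 3 high tumors and the gap is 0.25. Pgap3 and Erbb2 were neighbours with opposite directions, and among 20 tested genes of the locus 14 had lower and 6 higher means (median -0.31, with -0.11 without WT 4, -0.14 without WT 3 and -0.47 without HET 5). In the lists of signal transducers more means were lower than higher. ErbB adaptors and negative regulators had 16 of 24 lower means (median -0.08, with Rnf128 separating), ERK feedback genes 15 of 24 (median -0.12), and PI3K and insulin signalling genes 18 of 29 (median -0.04). The first median was -0.03 without WT 3 and -0.04 without HET 2, the second -0.33 without WT 1 and -0.05 without WT 4, and the third ran from -0.10 without HET 1 to -0.02 without HET 4. Of the PI3K list Tsc2, a brake on mTORC1, separated by 0.01 only. Among ERK feedback genes the members with the smallest p were Phlda1 and Etv5, at -0.56 and -1.13 (adjusted p = 0.266 and 0.292).

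In the Wnt pathway the receptor side was lower and the ligand side higher by their means. The 2 sides also differ in expression level, with WT list means of 8.83 for receptors and 6.64 for ligands. The part of expression level in their directions was not tested. Of 19 Frizzled, LRP and R-spondin receptor genes, 14 had lower means in HET (median -0.30), and 4 of the 5 HET tumors had a list mean below every WT tumor. Lgr4, a receptor for R-spondins that protects Frizzled from turnover, was the separating member, a share of 5.26%. It read 11.58, 11.47, 11.04, 11.15 and 10.66 in WT and 9.11, 9.93, 10.46, 9.20 and 10.05 in HET. HET 3 was highest in HET and WT 5 lowest in WT, and the difference was -1.43 (95% interval -1.97 to -0.89, adjusted p = 0.137). The adjusted p was 0.0224 without HET 3, but leaving out the HET tumor nearest to WT favours a lower p. HET 4 broke the pattern of the list mean, at 8.98 against 8.64 to 9.04 in WT, while the other HET tumors lay between 8.15 and 8.61.

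Wnt ligands, R-spondins and their secretion genes had 15 of 19 higher means (median 0.18, and 0.10 without HET 4), with no separating member. Wnt10a had the smallest p, at 6.49 to 7.63 in WT and 7.06 to 9.58 in HET (adjusted p = 0.290), and Wnt3a the next, with 4 of 5 HET tumors above WT. The destruction complex with Dishevelled had 14 of 20 lower means (median -0.16) and came close to separating as a list: tumor means were 9.03, 9.10, 8.88, 8.92 and 8.73 in WT and 8.51, 8.57, 8.72, 8.79 and 8.66 in HET. Only HET 4 and WT 5 crossed, by 0.06. No member separated, and those with the smallest p were Nkd2 and Amer1, at -1.46 and -0.41 (adjusted p = 0.376 and 0.377).

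TCF/LEF factors and beta-catenin cofactors had 15 of 18 lower means (median -0.20), with Tle2, a co-repressor, and Ctnnbip1, an inhibitor of the beta-catenin and TCF contact, having the smallest p (adjusted p = 0.316 and 0.373). Target genes had 14 of 21 lower means, with a median of -0.31 that was -0.10 without WT 1 and -0.48 without WT 3. Rnf43 and Znrf3, ligases that remove Frizzled receptors, had the smallest p among them. Rnf43 read 10.89, 9.36, 8.77, 9.60 and 9.39 in WT and 7.30, 7.98, 9.34, 6.88 and 8.54 in HET, so 4 HET tumors lay below WT and HET 3 within it (adjusted p = 0.224). Znrf3 was 8.92 ± 0.91 against 7.95 ± 0.45. Wnt inhibitors at the cell surface had 10 of 17 higher means, and their median of 0.11 changed sign without WT 3, WT 5, HET 2 or HET 4 and ran from -0.07 without HET 4 to 0.28 without HET 5. Rnf43 and Znrf3 belong to this list as well and had its smallest p, both with lower means (-1.59 and -0.97).

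Among junction genes Cdh19 stood alone. The other 10 tested cadherins overlapped between genotypes, with 6 of 11 means higher and a median of 0.04 that changed sign without WT 1, HET 3 or HET 4 and reached 0.22 without WT 4. Cdh1, E-cadherin, was 11.61 to 11.95 in WT and 8.38, 11.68, 11.72, 11.41 and 12.16 in HET, so its difference of -0.67 came from HET 1 and was 0.00188 without it. Jup, plakoglobin, which can take the place of beta-catenin at cadherins, ranged from 11.31 to 12.98 in WT and from 9.94 to 12.98 in HET. Its difference of -0.11 (95% interval -1.23 to 1.01) became 0.33 without HET 1. Catenins and their relatives had 8 of 11 lower means (median -0.19, with -0.06 without HET 1 and -0.31 without HET 2), with Pkp2 and Ctnnd2 the smallest p (adjusted p = 0.378 and 0.380).

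Desmosome genes split by member. Dsc3, a desmosomal cadherin of basal and squamous cells, read 5.02, 5.03, 5.39, 5.51 and 5.05 in WT and 6.84, 10.30, 8.27, 9.38 and 4.92 in HET, and Dsg2, a desmosomal cadherin of simple epithelia, 9.70 to 10.37 against 7.30 to 10.09. For Dsc3 HET 1 to HET 4 lay above WT and HET 5 just below it, and for Dsg2 HET 1 to HET 4 lay below WT and HET 5 within it (adjusted p = 0.226 and 0.242). The list had 10 of 14 higher means, with a median of 0.25 that ran from -0.23 without HET 2 to 0.68 without HET 1. Claudins and tight junction genes had 19 of 31 lower means (median -0.10, from -0.26 without HET 5 to 0.03 without HET 1), with Marveld3 and Cldn3 at -1.34 and -1.21 (adjusted p = 0.274 and 0.364). Gap junction genes included Gja1 (connexin 43), at 10.45 to 12.13 against 12.01 to 12.73, and Panx1, both with adjusted p over 0.05 (0.224 and 0.268).

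Integrins had 17 of 28 higher means (median 0.17, from 0.05 without HET 4 to 0.34 without WT 2). Itga2, the collagen-binding alpha-2 subunit, and Itgam, the alpha-M subunit of myeloid cells, differed by 1.73 and 1.39, each with 4 of 5 HET tumors above WT (adjusted p = 0.231 and 0.245). Laminins had 6 of 10 higher means, while the members with the smallest p, Lamb2 and Lama5, were lower, at -0.76 and -0.92 (adjusted p = 0.244 and 0.342). Their list median of 0.17 was -0.12 without WT 1, -0.07 without HET 4 and 0.33 without WT 2. Adherens junction partners had 10 of 14 higher means (median 0.10, from 0.03 without WT 1 to 0.16 without HET 3), though Ssx2ip and Actn4, with the smallest p, were lower (adjusted p = 0.302 and 0.317). Protocadherins were even (16 of 30 higher, median 0.04, which changed sign without WT 1, WT 3, HET 2 or HET 4 and ran from -0.19 without HET 4 to 0.19 without HET 1), with Pcdh18 and Cdhr1 at -0.90 and -1.14 (adjusted p = 0.293 and 0.300).

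Sardh, which breaks down sarcosine in mitochondria, read 9.24, 8.50, 8.27, 9.41 and 8.60 in WT and 6.60, 6.73, 8.06, 7.30 and 7.58 in HET (difference -1.55, adjusted p = 0.137). HET 3 again was nearest to WT. Choline, sarcosine and one-carbon genes had 20 of 27 lower means (median -0.19, with -0.33 without WT 3 and -0.34 without WT 5). Srebf1, the sterol response factor that governs fatty acid synthesis genes, was 9.86 ± 0.56 against 8.61 ± 0.44 with a gap of 0.01. Fatty acid and triglyceride synthesis had 19 of 24 lower means (median -0.28, with -0.10 without HET 1, -0.16 without WT 1 and -0.46 without HET 3).

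Mitochondrial amino acid catabolism had 22 of 26 lower means (median -0.44, and -0.29 without WT 1, the highest tumor at a list mean of 9.56 against at most 9.03), and Dhtkd1, a subunit of the 2-oxoadipate dehydrogenase of lysine breakdown, separated at 6.77 to 7.21 against 6.10 to 6.69 (adjusted p = 0.211). Fatty acid oxidation, chosen after its values were seen, had 20 of 23 lower means (median -0.34) and came nearest of all lists to separating: tumor means were 9.74, 9.19, 9.32, 9.21 and 9.36 in WT and 8.85, 8.82, 9.18, 8.73 and 9.21 in HET. HET 5 and WT 2 crossed by 0.02, and no single member separated. Oxidative phosphorylation subunits (60 of 71 lower, median -0.20), mitochondrial ribosomal proteins (58 of 69, -0.18) and ribosomal proteins (52 of 60, -0.20) also had mostly lower means, with 1, 0 and 1 separating members. These 3 lists are highly expressed (WT list means 9.64, 8.63 and 9.85), and lower means were more common among highly expressed genes. WT 1 had the highest list mean of all 10 tumors in each of these 3 lists, and without it their medians were -0.11, -0.07 and -0.10. Without HET 4 the last 2 were -0.09 and -0.13.

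Separating members were spread thinly over other families. Clock genes below WT were the nuclear receptor Rora (8.21 to 8.64 against 6.84 to 8.17) and the repressor Cry2 (6.83 to 8.07 against 6.08 to 6.80), 2 of 18 tested, and the list median of -0.15 was 0.01 without WT 4 and -0.24 to -0.29 without HET 2, WT 5 or WT 1. Plxnb3 and Sema4g did so among 28 semaphorins and plexins, Abcf3 and Abca2 among 32 ABC transporters, and Wwc1, an upstream regulator of Hippo kinases, among 22 Hippo genes (8.89 ± 0.39 against 7.56 ± 0.90). Ano1, a calcium-activated chloride channel, read 11.68, 11.72, 11.73, 12.12 and 11.80 in WT and 10.25, 11.04, 11.47, 10.32 and 11.09 in HET (difference -0.98, adjusted p = 0.207). Ano1 was tight in WT and low in HET 1 and HET 4, and 13 of 17 sodium and chloride channels had lower means. Bcl2l2, a survival member of the Bcl-2 family, was 7.76 ± 0.22 against 7.36 ± 0.05.

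Some families held separating members of both directions. Among 53 mucins and glycosyltransferases St3gal6 and Muc13 lay above WT (differences 0.96 and 0.92) and Galnt3 below (-1.10). Among 43 potassium channels Kcng3 lay above and Kcnn4 below, among 51 Rab GTPases Rab44 above and Rab15 below, and among 44 ubiquitin-specific proteases Usp42 above and Usp19 below. None of these 9 genes passed limma over all genes, and the list medians lay between -0.05 and 0.06. S100 proteins had 7 higher and 7 lower means, with S100a9 the only separating member of 14.

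Kcnn4, a calcium-activated potassium channel, was also the only separating member of 17 luminal progenitor genes. It was nearly constant in WT (11.78 to 11.98) and read 11.15, 9.57, 11.70, 9.87 and 11.69 in HET, so HET 3 and HET 5 lay just under WT. The luminal progenitor list had 12 lower means with a median of -0.91, which was -0.30 without WT 4. Its tumor means were 9.11 to 10.04 in WT and 8.04, 8.87, 9.86, 8.54 and 9.04 in HET, and HET 3 lay inside the WT range. Epithelial identity genes were lower by their means in 22 of 25 (median -0.67, and -0.22 without HET 1), with tumor means of 9.56 to 10.32 in WT and 7.32, 10.11, 10.25, 9.01 and 10.52 in HET. Their part in the lower values of HET 1 and HET 4 was not tested.

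No gene list separated as a whole. Of 104 lists with at least 5 tested members, 0 had all 5 HET tumor means above or below all 5 WT means, and 8 had 4 of 5 HET tumors beyond WT. Those above WT were neutrophil genes and FGF ligands and receptors (median 0.10, from -0.03 without HET 4 to 0.22 without WT 3), and HET 5 was the tumor inside the WT range in both. Those below were Wnt receptors, the destruction complex, fatty acid oxidation, luminal progenitor genes, Schwann cell and nerve genes, and interferon-stimulated genes. The tumor inside the WT range was HET 4 for both Wnt lists, HET 5 for fatty acid oxidation and interferon-stimulated genes, and HET 3 for luminal progenitor and Schwann cell genes. In all, 54 of the 225 separating genes were members of a list.

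**Figure D4:**
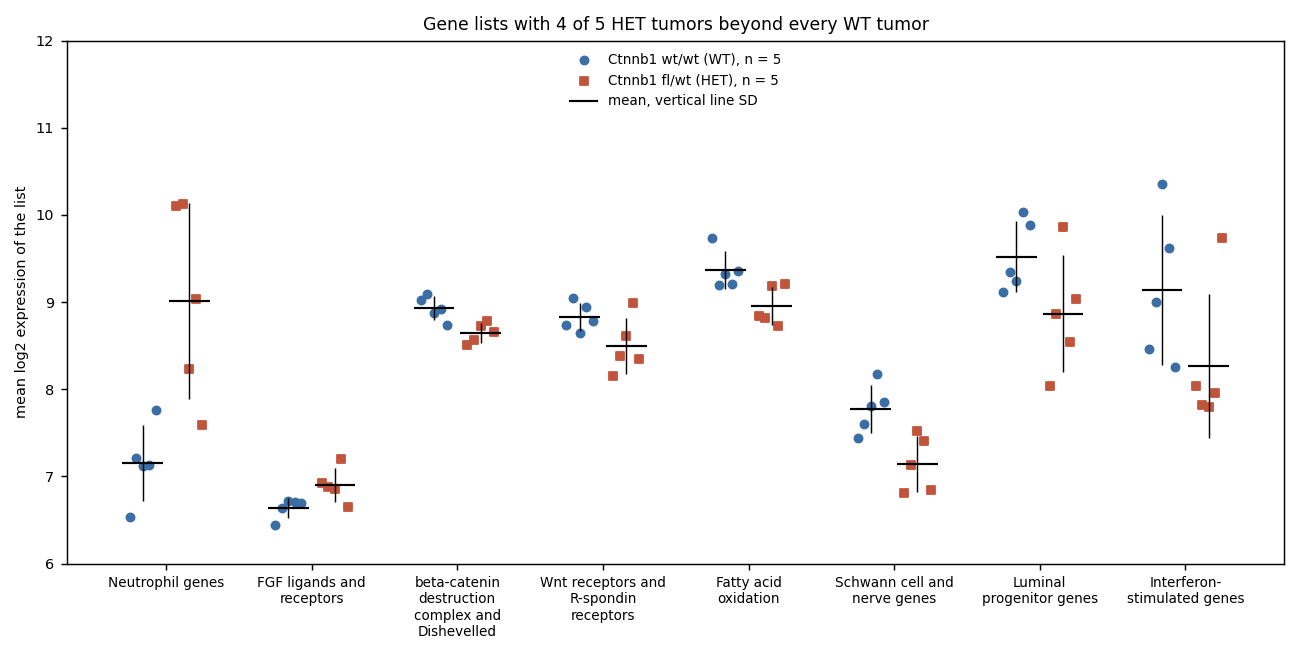
Mean log2 expression (vertical axis) of the tested members of the 8 gene lists in which 4 of 5 HET tumors lay beyond every WT tumor, each point a tumor, with mean and SD of 5 tumors per genotype. In each list 1 HET tumor lies inside the WT range, which is narrowest a miss for fatty acid oxidation (0.02) and the destruction complex (0.06).

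The Schwann cell and nerve list holds Cdh19, and its other 15 members overlapped between genotypes. Tumor means were 7.44, 7.60, 7.80, 8.18 and 7.85 in WT and 6.81, 7.13, 7.52, 7.40 and 6.85 in HET, with 9 of 16 means lower (median -0.18, with -0.06 without WT 4, -0.10 without HET 1 and -0.34 without HET 4). Interferon-stimulated genes had 24 of 27 lower means (median -0.89). They read 8.47, 9.0, 10.36, 9.62 and 8.25 in WT and 8.04, 7.82, 7.80, 7.96 and 9.74 in HET, so HET 5 lay above 4 of the 5 WT tumors.

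Cell type lists set single HET tumors apart more than they set the genotypes apart. Skeletal muscle genes averaged 10.98 in HET 3 and 6.01 to 6.85 in the other 9 tumors. B and plasma cell genes averaged 9.60 in HET 1 and 6.36 to 7.65 in the others. Fibroblast genes averaged 11.38 in HET 4, 6.54 in HET 5 and 7.01 in WT 1, and 8.96 to 9.55 in the others, and endothelial and pericyte genes were highest in HET 4 as well (9.69 and 10.11). The median differences of fibroblast, endothelial and pericyte lists (0.30, 0.34 and 0.07) were -0.24, -0.01 and -0.34 without HET 4. Without WT 1 the fibroblast and pericyte medians were -0.15 and -0.03, and the pericyte median was -0.06 without WT 3. Without HET 5 the 3 medians were 0.92, 0.63 and 0.37. Whether these contents act on the genes above was not tested beyond the fit with leukocyte and fibroblast means as covariates, in which A530020G20Rik passed (adjusted p = 0.0335) and Cdh19 did not (0.0653).

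**Figure D5:**
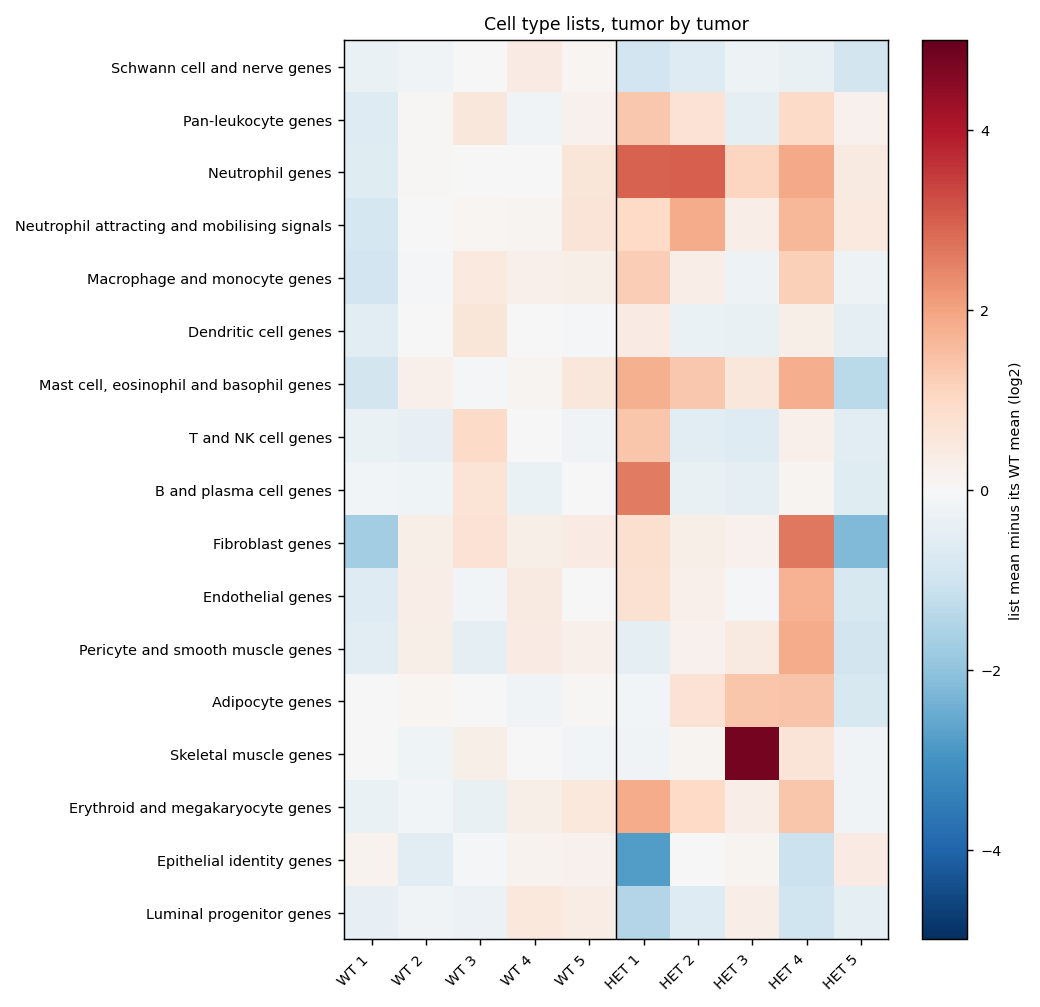
Mean log2 expression of each cell type list (rows) in each WT and HET tumor (columns), coloured by its difference from the list's WT mean. Skeletal muscle genes stand out in HET 3, B and plasma cell genes in HET 1, fibroblast genes in HET 4, and neutrophil genes in HET 1, HET 2 and HET 4.

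Where separating genes lie was read from the RefSeq gene order of GRCm38.p6. Chromosome 2 held 32 of the 149 genes with HET below WT, 2.85% of its 1121 tested genes, against 0.894% of all other chromosomes together and at most 1.52% on any other. Lgr4, Sardh, Nsmf, Dhtkd1, Galnt3, Cry2 and Abca2 are among them. The mean of chromosome 2 genes relative to the whole array was 0.09 in WT 4, against -0.16 to -0.11 in the other WT tumors and -0.15 to -0.12 in the HET tumors. Without WT 4 the share was 3.03% on chromosome 2 and 1.74% elsewhere, so the ratio between them was smaller. DNA copy number was not measured.

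Next to Ctnnb1, among the 20 nearest tested genes on each side, 4 of 40 separated and all 4 lay below WT, Gorasp1, Vipr1, Ss18l2 and Pomgnt2. The share lying below WT was 1.05% over all genes and 1.52% over chromosome 9, which holds Ctnnb1. Ss18l2 read 8.79, 9.37, 9.21, 8.99 and 8.11 in WT and 7.32, 7.15, 7.94, 7.32 and 7.77 in HET, and Vipr1, a receptor for vasoactive intestinal peptide, 7.16 to 9.73 against 6.04 to 7.05. WT 5, the tumor with low Ctnnb1, was the lowest WT tumor for all 4 genes, and for 53 of all 149 separating genes with HET below WT. Of the 40 neighbours 25 had a lower mean, with a median of -0.16, against 54.5% and -0.03 over all genes. Over the genome there were 9 pairs of separating genes directly next to each other, 7 of them with the same direction. They included Stfa2l1 and Stfa1, Sema4g and Twnk, Vps39 and Tmem87a, Pck2 and Dcaf11, and the opposite pairs Pgap3 with Erbb2 and Carmil1 with H2ac1.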

How the data were processed

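Total RNA (100 ng per tumor) was labelled and hybridised to 15 Affymetrix whole-transcript arrays. The authors deposited 1 table of 41345 transcript clusters, read here as log2 values from its range of 1.06 to 13.9. Per the submitters' processing notes, Affymetrix Expression Console and Transcriptome Analysis Console were used. Their versions and the normalization method: not given in the sources used here. Array medians lay between 5.54 and 5.73, and no detection calls were used. The number of arrays limits the precision.

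Clusters were named by the platform annotation (23521 with exactly 1 symbol, 23328 found in RefSeq). The brightest cluster per gene, by its mean over all 15 arrays, was kept (22180 genes). Genes above the array median on at least 5 of the 15 arrays were tested (14243). A single limma model (version 3.58.1, R 4.3.3) covered the 3 genotypes, two-sided, with Benjamini-Hochberg adjustment, after a check on simulated data. Adjusted p-values are from this fit. Ctnnb1 was also compared with an exact permutation test.

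Gene lists (105, of which 104 had at least 5 tested members) were described by counts, medians and the mean of each tumor, without a test. Named genes were Ctnnb1, Jup, Cdh1 and Erbb2, called genes, the 12 widest gaps per direction without gene models, and up to 5 separating members of a described list, or its 2 smallest p. Described lists were those of Wnt, junction and ErbB genes, and lists of at least 8 tested members with at least 2 times the overall share of separating genes. Genes or lists outside this are said to be named after their values were seen, or are singled out by a count of 5 or fewer. Members and lists were chosen with earlier results of these data known. Promoters came from RefSeq (GRCm38.p6). The alternatives are given in the closing section. A described list is not reported here.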

Additional observations from a re-analysis of the deposited data

Results flagged for a closer look

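In 6 of 136 groups of 5 tumors examined (WT or HET, for the leading genes and the described lists), 1 tumor lay far from the other 4, by a gap over 0.71 of the whole range. By chance about 1 group in 20 would do so.

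Cdh1 was 8.38 in HET 1, against 11.41 to 12.16 in the other HET tumors. WT 1 was the low tumor in 3 list means: integrins at 7.47 against 8.43 to 8.50, ErbB receptors and ligands at 7.09 against 8.18 to 8.58, and apoptosis regulators at 8.07 against 8.32 to 8.38. HET 4 was the high tumor in 2: laminins at 9.35 against 8.30 to 8.52, and ErbB adaptors and negative regulators at 8.96 against 8.62 to 8.71.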

How the results depend on the processing

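The 2 called genes became 0 with a filter at the 75th percentile (1167 genes at an unadjusted p under 0.05, with both called genes untested) and with array weights (1795), 1 with quantile normalization, with only HET and WT in the fit and with the leukocyte and fibroblast covariates, and 10 without HET 1 and HET 3 together. With 1 tumor left out the count ran from 1 to 48. The adjusted p of Cdh19 ran from 0.00474 to 0.0653 and that of A530020G20Rik from 0.0160 to 0.412 over the settings that tested them. Genes separating higher numbered 135 with no filter, 29 with the stricter filter and 380 without HET 1 and HET 3, and 97 to 226 with 1 tumor left out. Genes separating lower numbered 173 with no filter, 96 with the stricter filter and 439 without HET 1 and HET 3, and 163 to 476 with 1 tumor left out. Filters change how many genes are tested, and fewer tumors can only add separating genes. Under quantile normalization 59 of the 76 and 111 of the 149 genes remained. Ctnnb1 differed by -0.49 to -0.27 with 1 tumor left out, passing only without WT 5. That tumor is the only WT tumor not above every HET tumor for Ctnnb1, so leaving it out fixes this outcome. Jup turned to 0.38 with the covariates, 0.0455 without HET 1 and HET 3, and ran from -0.43 to 0.33 with 1 tumor left out. Cdh1 was 0.00996 without HET 1 and HET 3 and ran from -0.94 to 0.00188. Of 81 named genes only these 2 changed direction under the 20 settings; the cause was not tested. No replicate block applies: No paired analysis was possible because the replicate numbers only follow accession order. Signal over background was not available, which limits low genes such as Cdh19 in HET and Stfa2l1 in WT.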

Other observations

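Of the 171 separating genes in no list, 6 with HET above WT were picked by hand after their values were seen. They stand for no group, and none passed limma over all genes. Mapk6, an atypical MAP kinase, read 10.03, 10.45, 10.52, 10.36 and 10.77 in WT 1 to WT 5 and 12.11, 11.92, 10.92, 11.29 and 10.93 in HET 1 to HET 5 (difference 1.01, adjusted p = 0.206). HET 1 and HET 2 were highest, and HET 3 and HET 5 came nearest to WT. Dusp9, a phosphatase of ERK, lay between 6.39 and 7.69 in WT and between 7.84 and 9.77 in HET (difference 1.27, adjusted p = 0.224). Nras, a small GTPase upstream of ERK, had a narrow spread and a difference of 0.30 (adjusted p = 0.224). The cell cycle factors E2f4 and E2f7 differed by 0.45 and 0.86, and Odc1, the first enzyme of polyamine synthesis, by 1.22, with HET 1 highest at 11.83.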
